A study of Mus musculus with 12 samples.

Results

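Ppil3, Nelfe, Yif1a, Znrd2, Cops6, Nmt1 and Trdn are 7 genes that each have at least 1 probe set with higher signal in mouse eggs given siRNAs against both Dcp1a and Dcp2 than in control eggs. Of the 18193 genes with a probe set of their own on the array, 6998 could be tested, and these 7 were picked because they appeared raised when both factors were depleted and not when 1 was, so their differences between these groups are a description, given without p-values. The array carried 19 probe sets with one of these symbols as their only symbol. Of these 19, 8 passed the filter on dim probe sets, a log2 value above 5 (32 intensity units) on at least 3 of the 12 arrays. For 4 of the 8 the double knockdown arrays alone carried them past it, as for 0.983% of the 11593 probe sets tested. The largest difference between double knockdown and control defined the leading probe set of each gene. The values match that description for 6 of the genes. Trdn goes against it, since its leading probe set also read high in all eggs given Dcp1a siRNA and in 1 sample given Dcp2 siRNA.

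The study measured mRNA of CF1 mouse eggs at metaphase II on Affymetrix arrays. Full-grown germinal vesicle oocytes were microinjected with a control siRNA, with a pool of siRNAs against Dcp1a, with a pool against Dcp2, or with both pools mixed. All oocytes were then cultured for 20 h with milrinone, which holds meiotic arrest, and matured in vitro for 18 h without it. Every group had 3 biological replicates, each a pool of 30 eggs, so a p-value measures the spread among pools and not among eggs. An siRNA lowers its target without deleting the gene.

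Dcp2 is the enzyme that removes the 5′ cap of an mRNA, and Dcp1a is its cofactor. Removal of the cap exposes the transcript to 5′-to-3′ exonuclease. A full-grown oocyte hardly transcribes, so the RNA content of the egg reflects stored maternal mRNA and how much of it has been degraded during maturation. An array value is relative to the other transcripts of the same array, and total mRNA per egg was not measured. In pooled eggs, fewer eggs holding a transcript and less of it in each egg cannot be told apart.

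Dcp1a read 5385 to 12427 units in control eggs, 589 to 1236 after Dcp1a siRNA and 518 to 1233 after both siRNAs. The Dcp2 probe set read 30.4 to 81.8 in control eggs and 4.9 to 5 after Dcp2 siRNA, alone or combined, which is the floor of the scale. Of 11 oocyte markers with a probe set, 10 were above 32 units, and their summed intensity ranged from 79900 to 111900 in control eggs and from 124500 to 133100 in the double knockdown. Only 2 of 16 cumulus and granulosa cell markers were above 32 on any array, Nr5a2 and Kitl, while Fshr, Amh, Inha and Inhba stayed at 4.9 throughout. The summed level of that list was 1621 to 2227 in control eggs and 1309 to 1572 in the double knockdown. The 3′ control probe set for Gapdh read 3314 to 4857 in the double knockdown and 1227 to 2854 in control eggs, and its ratio to the 5′ probe set was 153 to 168 and 96.8 to 176. In the Dcp1a and Dcp2 knockdowns it read 1781 to 2104 and 1875 to 3731, the latter overlapping the double knockdown. The oocyte marker sum was 107100 to 121700 and 85390 to 107600 in these groups, and the cumulus and granulosa sum 2440 to 2524 and 1758 to 2679. The part of the oocyte marker and Gapdh differences in the results below was not tested. Control replicate 3 stood apart for several of the 7 genes, so the folds of these 7 against control are given with and without it.

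The upstream sequence is shown first, as description only, since a full-grown oocyte hardly transcribes and a link between promoters and these values was not tested. The RefSeq promoter table of GRCm38.p6 held a window for 5 of the 7 genes, Ppil3, Yif1a, Znrd2, Cops6 and Nmt1, and the 250 bases before the start were searched. The word CGGAAG or its reverse complement CTTCCG, the core of sites for Ets-family factors, was in 5 of 5 windows. It occurs in 13.6% of all 32851 windows of that length, in 25.7% of 7448 windows of genes tested here and in 34.5% of 391 windows of other genes called higher in the double knockdown against each of the 3 groups (limma, adjusted p under 0.05). GGGCGG or CCGCCC, the core of GC boxes, was also in 5 of 5, against 58.5% for genes tested. CCAAT or ATTGG was in 2 of 5 (35.7%) and TATAAA or TTTATA in 0 of 5 (6.51%). CGGAAG was chosen after the windows had been seen, a match is no evidence of a bound factor, and no promoter activity was measured. The windows of Yif1a (chr19:5088288-5088537, plus strand), Znrd2 (chr19:5731733-5731982, minus strand) and Cops6 (chr5:138160852-138161101, plus strand) are given 5′ to 3′ on the strand of the gene, with CGGAAG or CTTCCG in capitals. These 3 are shown because their leading probe sets were under 32 units on all 9 arrays outside the double knockdown.
Yif1a: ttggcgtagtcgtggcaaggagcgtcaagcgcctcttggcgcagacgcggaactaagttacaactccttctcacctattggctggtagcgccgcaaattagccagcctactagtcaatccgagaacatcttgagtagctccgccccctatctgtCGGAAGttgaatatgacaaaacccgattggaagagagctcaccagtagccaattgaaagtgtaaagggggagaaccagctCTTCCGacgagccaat
Znrd2: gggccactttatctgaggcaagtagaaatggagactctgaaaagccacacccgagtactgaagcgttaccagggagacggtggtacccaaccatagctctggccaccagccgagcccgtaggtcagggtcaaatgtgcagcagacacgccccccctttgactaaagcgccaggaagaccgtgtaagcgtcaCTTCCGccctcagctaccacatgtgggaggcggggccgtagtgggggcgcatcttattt
Cops6: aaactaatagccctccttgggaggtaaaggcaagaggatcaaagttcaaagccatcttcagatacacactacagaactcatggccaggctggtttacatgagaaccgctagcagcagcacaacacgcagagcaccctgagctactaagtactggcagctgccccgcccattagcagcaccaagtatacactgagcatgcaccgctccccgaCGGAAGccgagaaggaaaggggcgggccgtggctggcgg
Yif1a held the word 2 times in this window, and Znrd2 and Cops6 held it 1 time each.

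Nelfe and Ppil3 encode proteins of complexes that work in the synthesis or splicing of RNA. Nelfe encodes a subunit of the negative elongation factor, which holds RNA polymerase II just downstream of promoters. Its single probe set read 26.7, 29.4 and 38.4 units in control eggs, 32.3, 37.1 and 15.2 in the Dcp1a knockdown and 41.3, 31.7 and 37 in the Dcp2 knockdown. In the double knockdown it read 306, 480.7 and 312.5. No array of the other groups came near these values, the highest being 41.3. Against the Dcp2 knockdown the ratio of geometric means was 9.83. Control and Dcp1a knockdown lay at or under 32 units on average, so there only bounds can be given, at least 10.5-fold and at least 10.6-fold. Such a bound sets every array of the dimmer group under 32 units to 32 and allows for the floor, not for the spread among arrays. Without control replicate 3 the bound against control was 11.2-fold.

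Ppil3 encodes a cyclophilin-type peptidyl-prolyl isomerase found in spliceosomes. Its leading probe set read 405.1, 405.5 and 344.4 in the double knockdown. Every Dcp1a knockdown array (6.5, 7.2 and 6.3) and every Dcp2 knockdown array (7.5, 5.7 and 8.9) was close to the floor. In control eggs it read 7.7, 6.3 and 52, so control replicate 3 was the one array outside the double knockdown with a signal above 32. The double knockdown was at least 10.2-fold above control, or 12-fold without control replicate 3, and at least 12-fold above each single knockdown. The other Ppil3 probe set was at 4.9 on all 12 arrays.

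Cops6 and Nmt1 act on proteins. Cops6 encodes a subunit of the COP9 signalosome, the complex that removes Nedd8 from cullin-RING ubiquitin ligases. Its leading probe set was at 4.9 to 5 on 8 of the 9 arrays outside the double knockdown and at 7.3 in control replicate 3. It read 48.7, 65.3 and 63.6 after both siRNAs. With the other groups at the floor only a bound of at least 1.83-fold is available, the same against all 3 groups and without control replicate 3. A second Cops6 probe set never left 4.9. The printed Cops6 window held 2 GC box words and no TATA word.

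Nmt1 encodes an N-myristoyltransferase, which attaches a fatty acyl chain to the amino-terminal glycine of proteins. It was the only one of the 7 whose leading probe set was well above 32 units on every array. The double knockdown arrays agreed closely, at 527.1, 522.3 and 539.2. All Dcp1a knockdown arrays (114, 114 and 129.6), all Dcp2 knockdown arrays (126.5, 120.9 and 120.5) and control replicates 1 and 2 (114 and 124.5) formed a narrow band. Control replicate 3 read 375.6, between that band and the double knockdown. The log2 difference was 1.60 ± 0.36 (SE of the fit) against control, 2.15 ± 0.36 against the Dcp1a knockdown and 2.11 ± 0.36 against the Dcp2 knockdown. This SE pools the spread of all groups. The SD of log2 values was 0.959 in control eggs, 0.107 and 0.039 in the Dcp1a and Dcp2 knockdowns and 0.024 in the double knockdown. Without control replicate 3 the ratio to control rose from 3.03 to 4.44, near the 4.45 and 4.32 found against the single knockdowns. Of the other Nmt1 probe sets, one was at 4.9 throughout, and one ranged from 10.5 to 16.9 with its highest values outside the double knockdown.

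Yif1a encodes a membrane protein of the Yip family that works in traffic between the endoplasmic reticulum and the Golgi. Its leading probe set read 101.2, 270.2 and 111 in the double knockdown, a 2.67-fold spread among replicates. It lay between 4.9 and 5.1 on every other array except control replicate 3, at 21.4. The bound was at least 4.53-fold against each of the 3 groups, and the same against control without replicate 3. A second Yif1a probe set stayed at the foot of the scale, with 8, 6.1 and 5.8 in the double knockdown and 4.9 on the other 9 arrays, too dim to show a change. The remaining one ranged from 5.2 to 5.8 and the groups overlapped. The printed Yif1a window also held CCAAT or its complement 4 times.

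Znrd2 encodes a small zinc ribbon protein known as a scleroderma and Sjögren syndrome autoantigen. It was the only one of these genes with more than 1 probe set past the filter. Both passed through the double knockdown arrays alone, so that they are high there and dim elsewhere follows from the filter. The leading one read 57.7, 130.6 and 56.1 in the double knockdown and 4.9 to 5 on all 9 other arrays. The other read 80.1, 192.1 and 119.2, against 11 to 14.3 elsewhere. Both were highest in double knockdown replicate 2, and control replicate 3 did not stand apart in either. The bounds were at least 2.35-fold and at least 3.83-fold above each group, and the same against control without replicate 3.

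Trdn encodes triadin, which links the calcium release channel of the sarcoplasmic reticulum to its luminal calcium-binding protein in muscle. Its leading probe set read 242.1, 203.7 and 203.8 in the double knockdown and 19.9, 25.8 and 14.8 in control eggs. The Dcp1a knockdown was intermediate at 145.9, 116 and 86.7. The Dcp2 knockdown split, with 155.8 in replicate 1 and 12.4 and 18.1 in replicates 2 and 3. The Dcp1a knockdown thus lay above every control array, by a log2 difference of 2.53 ± 0.73 (SE). With every control array under 32 units, the size of this difference depends on the floor. The double knockdown arrays were the highest of all, but the ratio to the Dcp1a knockdown was 1.90, a log2 difference of 0.93 ± 0.73 (SE). Against control it was at least 6.74-fold and against the Dcp2 knockdown at least 3.98-fold higher. The other 5 Trdn probe sets ranged from 4.9 to 6.9 on all arrays. Of 14 muscle markers 12 stayed under 32 on every array, Actn2, Myh6, Acta1 and Ckm among them. Ttn and Myh2 were above it, and the summed level of the list was 841 to 895 in control eggs, 705 to 906 after Dcp1a siRNA, 737 to 1536 after Dcp2 siRNA and 872 to 1505 after both.

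**Figure D1:**
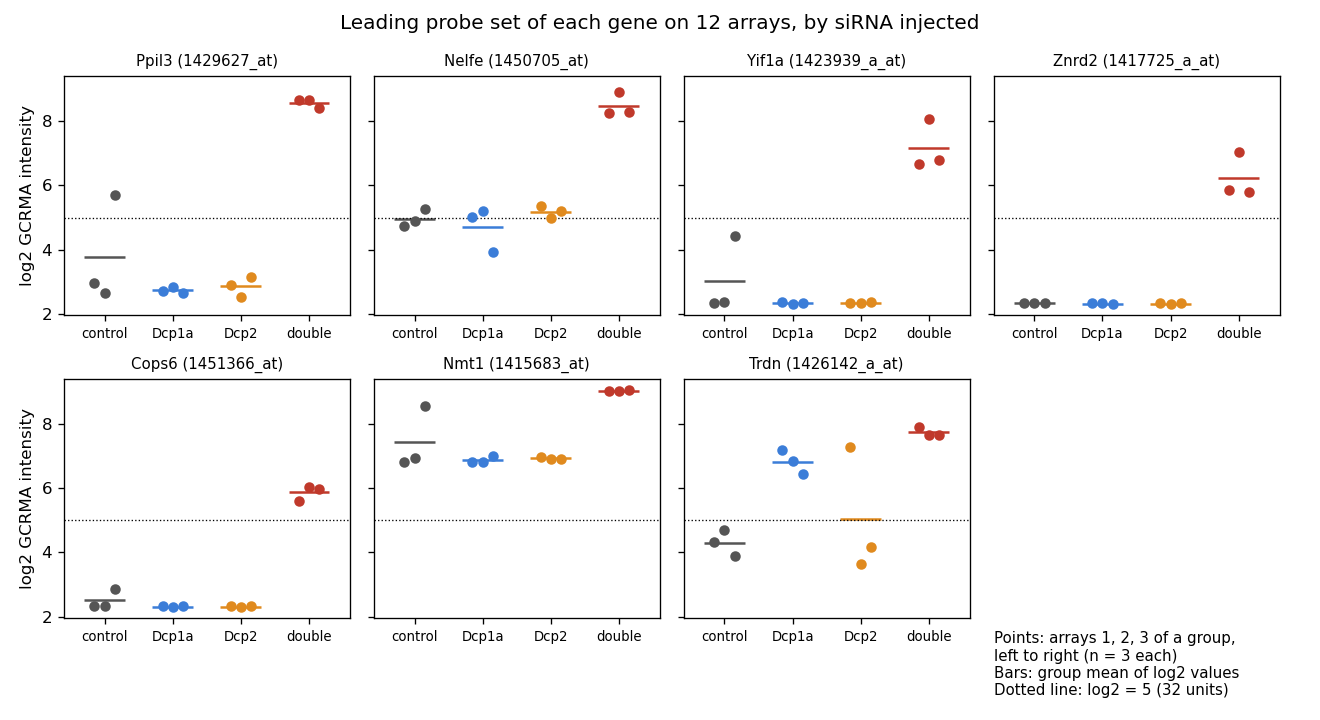
Log2 GCRMA intensity (y axis) of the leading probe set of each gene on 12 arrays, grouped by the siRNA injected (x axis); points are the 3 arrays of a group, bars the mean of their log2 values and the dotted line log2 = 5. The 3 double knockdown arrays lie above the 9 others in all 7 panels, control replicate 3 lies high for Ppil3, Yif1a and Nmt1, and Trdn is also high in the Dcp1a knockdown.

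In all 7 genes the lowest double knockdown array was above the highest of the other 9, a pattern held by 8.71% of the 11593 probe sets tested. The leading probe sets of Yif1a, Znrd2 and Cops6 passed the filter through the double knockdown arrays alone, so for them this pattern follows from the filter. The plot by array shows that the distance varied widely. Between the lowest double knockdown array and the highest other array the gap was 3.49 for Znrd2, 2.89 for Nelfe, 2.74 for Cops6, 2.73 for Ppil3 and 2.24 for Yif1a on the log2 scale. It was 0.48 for Nmt1 and 0.39 for Trdn, the closest to overlap. Without control replicate 3 the gap was 5.27 for Ppil3, 4.31 for Yif1a and 2.01 for Nmt1. For Znrd2, Cops6 and Yif1a the highest other array read 5, 7.3 and 21.4 units, under 32. The size and rank of their gaps thus depend on the floor, as does the gap of Ppil3 without control replicate 3. As the choice of genes used these comparisons, the counts of calls by limma at a Benjamini-Hochberg adjusted p under 0.05 only describe what was chosen and are no test of it. The leading probe sets of 7 genes were called higher against control (6.62% of all probe sets tested, 8.72% in either direction), and 6 against the Dcp1a knockdown (8.27%) and 6 against the Dcp2 knockdown (6.12%), Trdn being the exception in both. The departure from additive single changes (double minus Dcp1a minus Dcp2 knockdown plus control) was called upward in 6 (3.9%), again without Trdn, where it was 0.19 ± 1.03 (log2, SE). Neither single knockdown was called against control in any of the 7 (0.0518% of all probe sets for Dcp1a and 0.0173% for Dcp2). Higher against each of the 3 groups were 6 of the 7 genes and 4.58% of all probe sets. In all, 528 probe sets (4.55%) were called higher against each of the 3 groups, were not called in a single knockdown and did not overlap with the other arrays. The 6 genes are a small part of that set.

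The single knockdowns were compared with each other as well, a comparison in which the choice of genes set no direction, although it favoured genes low in both. The limma test called 0 of the 7 leading probe sets, against 0.0604% of all probe sets tested. An unadjusted p under 0.05 (limma) was found for 22.1% of all probe sets and for 1 of the 7. That was Trdn, with a log2 difference of Dcp2 minus Dcp1a knockdown of -1.80 ± 0.73 (SE, adjusted p = 0.209, limma). Without Dcp2 knockdown replicate 1, which read 155.8, it was -2.92 ± 0.30 (SE) and passed the threshold. That fit is 1 of 12 that each leave out an array, and it is named after its result was seen. The other Dcp2 knockdown arrays read 12.4 and 18.1, under 32 units, so both sizes depend on the floor. Znrd2, Cops6, Yif1a and Ppil3 read under 32 units on all 6 arrays (8.9 at most), so a difference between the single knockdowns could not be measured for them. Nelfe differed by 0.47 ± 0.33 and Nmt1 by 0.04 ± 0.36 (SE), neither past the test, and Nelfe was near 32 units in both groups.

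**Figure D2:**
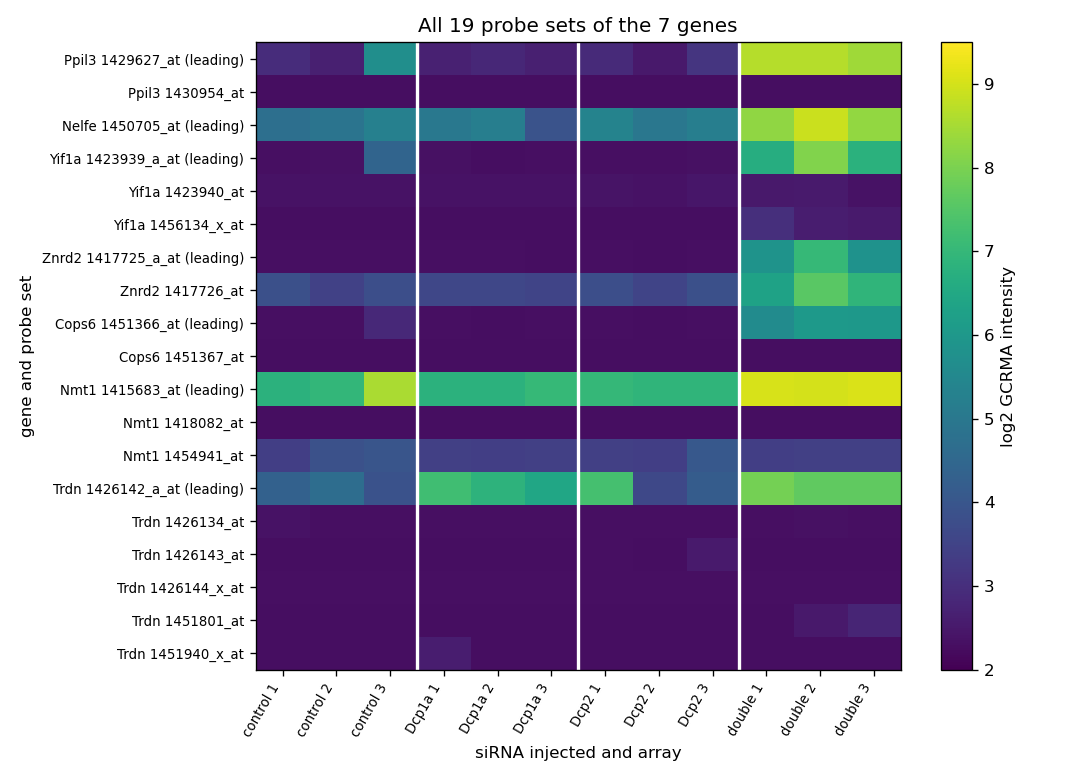
Log2 GCRMA intensity (colour scale) of all 19 probe sets of the 7 genes (rows) on the 12 arrays (columns, by siRNA injected), with white lines between groups. Only Znrd2 has a second probe set that rises above 32 units, and the 11 other non-leading probe sets stay at or under 16.9 on every array.

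The finding rests on 1 probe set for most of these genes. Among the 12 probe sets that were not leading, 11 never exceeded 32 units on any array, their highest value being 16.9, as the colour map of all probe sets shows. A probe set at the floor neither shows nor excludes a change of its transcript. Of the 6 genes with more than 1 probe set, 5 (83.3%) had all others at or under 32 units. The share was 30.5% among 318 such probe sets called higher against each of the 3 groups, and 24.9% among 8448 of all tested. Dim control signal was also common, since 6 of the 7 leading probe sets averaged at or under 32 units in control eggs. This held for 32.6% of the 457 probe sets with 1 symbol that were called higher against all 3 groups and for 5.23% of all tested. These shares describe the 7 genes, which were picked partly for large differences.

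Replicates of the same group differed in a similar way for several of the genes. Control replicate 3 was the highest of the 9 arrays outside the double knockdown for 4 of the 7 genes, Ppil3, Yif1a, Cops6 and Nmt1. For 3 of them, all but Cops6, it exceeded both other control arrays more than 2-fold, whereas Trdn was lowest there. Of all probe sets tested, 4.31% had control replicate 3 that far above both others, and of the 531 called higher in the double knockdown against each of the 3 groups, 26.6% did. Within the double knockdown, replicate 2 was highest for 5 of the 7 genes, with Trdn highest in replicate 1 and Nmt1 in replicate 3. Its lead was narrow for Ppil3 (405.5 against 405.1 in replicate 1) and Cops6 (65.3 against 63.6 in replicate 3). The share of all probe sets highest in replicate 2 was not counted, so no trait of these genes is claimed.

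The genes with the most similar profiles were sought by the mean absolute difference over the 12 arrays between log2 profiles, each centred on its own mean. The 7 leading probe sets themselves lay 0.21 (Cops6) to 1.18 (Trdn) from their average profile, and the median of 10691 probe sets of other genes was 1.40. The nearest 8 of those were Mrpl12 (0.19), Mrpl22 (0.20), Fcf1 (0.20), Drg1 (0.23), Ndufa9 (0.23), Eif3l (0.25), Dppa2 (0.26) and Atp5o (0.27). Mrpl12 and Mrpl22 encode proteins of the mitochondrial ribosome, Ndufa9 and Atp5o parts of respiratory complex I and of ATP synthase, and Eif3l a subunit of a translation initiation factor. Mrpl12 read 8.07 ± 0.92 in control eggs, 8.1 ± 0.44 and 8.37 ± 0.97 in the Dcp1a and Dcp2 knockdowns, and 113 ± 16.4 after both (mean intensity ± SD, n = 3). Fcf1, a ribosomal RNA processing factor, went from 42.2 ± 13.6 in control eggs to 637 ± 186 after both. Dppa2, a gene of pluripotent cells and early embryos, read 22.8 ± 8.17 and 164 ± 6.99 in the same groups.

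Taken gene by gene, the nearest profiles were those of Pum3 and Ndufs8 for Ppil3 (0.34 and 0.52), Gtf2f1 and Drg1 for Nelfe (0.26 and 0.27), and Rpl19 and Pum3 for Yif1a (0.33 and 0.34). Mrpl12 and Fcf1 were nearest to Znrd2 (0.17 and 0.22), and Drg1 and Mrpl12 to Cops6 (0.11 and 0.17). Rps26 and Eif2b4 were nearest to Nmt1 (0.13 for both), and they shared the high control replicate 3. Rps26 read 71.8, 69.8 and 176.2 in control eggs and 344 ± 39.9 in the double knockdown, and Eif2b4 read 56.1, 53.7 and 161.5 against 285 ± 22.4. Trdn had no close match, the nearest being BC051142 (0.63) and Pxt1 (0.69). Pxt1, a gene of the male germ line, read 63.2 ± 39.9 in control eggs, 258 ± 17.5 in the Dcp1a knockdown, 99.5 ± 102 after Dcp2 siRNA and 272 ± 67.1 after both. These likenesses were searched over all probe sets and carry no test.

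**Figure D3:**
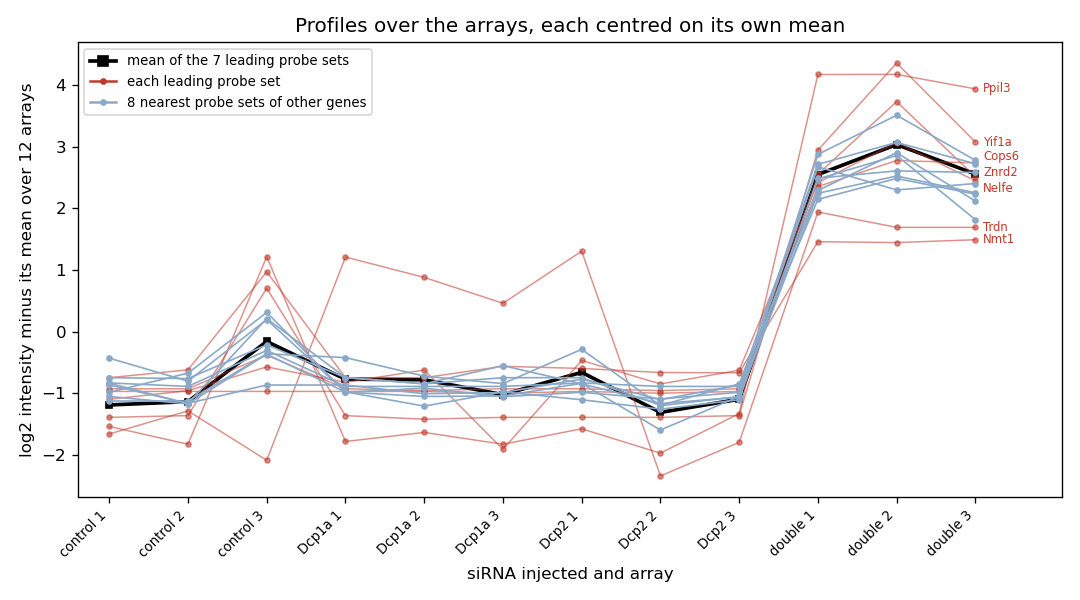
Log2 intensity minus its mean over 12 arrays (y axis) on each array (x axis, by siRNA injected) for the 7 leading probe sets (red), their average (black) and the 8 nearest probe sets of other genes (blue); lines join arrays only to guide the eye. The average lies at 2.55, 3.04 and 2.56 on the double knockdown arrays, at -0.16 in control replicate 3 and between -1.31 and -0.66 on the other 8.

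Genes of the pathways in which the 7 work were compared next. Of 88 genes in 6 lists (the rest of the COP9 signalosome, promoter-proximal pausing, the Yip family with the COPII coat, processing of the protein amino terminus, cyclophilins, and calcium stores), 58 were tested, each by its brightest probe set. Against control the double knockdown had 4 of them higher and 0 lower, with 25 at an unadjusted p under 0.05 (limma), a threshold that 27.8% of all probe sets passed. As shares these are 6.9% and 0% of the 58, next to 6.62% higher and 2.1% lower among all probe sets tested. The median log2 change was 0.02 over the lists and -0.02 over all probe sets. By list it was 0.25 for the COP9 signalosome, -0.35 for pausing, 0.08 for the Yip family and COPII coat, -0.50 for the amino terminus, -0.18 for cyclophilins and 0.17 for calcium stores. Against the Dcp1a knockdown 7 were higher and 1 lower (8.27% and 3.79% of all probe sets), and against the Dcp2 knockdown 3 were higher and 0 lower (6.12% and 0.25%).

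Of the 9 other COP9 signalosome genes, 1 rose, Cops3, from 756 ± 159 in control eggs to 1491 ± 410 in the double knockdown (mean intensity ± SD, n = 3). Its log2 change was 0.96 ± 0.24 (SE, adjusted p = 0.0299, limma). Cops4 read 53.6, 20.8 and 51.2 in control eggs and 129.6, 95.6 and 169.2 in the double knockdown, with no overlap, and missed the threshold against control (1.73 ± 0.49, adjusted p = 0.0538, limma). It passed against the Dcp2 knockdown, where it read 16.4, 39.3 and 10, by at least 3.73-fold (adjusted p = 0.00571, limma). Cops5, the catalytic subunit, had a change of 0.95 ± 0.45 and Cops8 one of -0.11 ± 0.24, neither past the test; both were picked after their values were seen. For the pausing list 0 of 9 were called and 4 had an unadjusted p under 0.05 (limma). Its nearest were Supt5, a subunit of the elongation factor that works with the negative elongation factor (0.75 ± 0.23, adjusted p = 0.073), and Ccnt1, the cyclin of the pause-release kinase (0.92 ± 0.33, adjusted p = 0.108, limma). The remaining subunits of the negative elongation factor had changes of 0.43 ± 0.28 (Nelfa), -0.65 ± 0.40 (Nelfb) and -0.70 ± 0.37 (Nelfcd), none past the test and all 3 named as direct partners outside the naming rule.

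In the Yip family and COPII list 1 of 15 rose, Sec24c, a cargo adaptor of the COPII coat, from 415 ± 131 to 723 ± 95.5 units (0.85 ± 0.23, log2, SE, adjusted p = 0.0466, limma). Yipf1 had a change of 0.86 ± 0.25 (adjusted p = 0.0552, limma) against control and passed against the Dcp1a and Dcp2 knockdowns (adjusted p = 0.0183 and 0.0422, limma). Sec24a was the gene lower against the Dcp1a knockdown, by a log2 change of -0.71 ± 0.18 (adjusted p = 0.0258, limma), and it too was named after its value was seen. In the list for the protein amino terminus 2 of 11 rose. Metap2, a methionine aminopeptidase that exposes the glycine used by N-myristoyltransferases, went from 2356 ± 608 to 4243 ± 705 units (0.87 ± 0.24, log2, SE, adjusted p = 0.0457, limma). Its 2 other probe sets had changes of 0.45 ± 0.31 and 0.64 ± 0.31 and were not called. Naa38, a subunit of an amino-terminal acetyltransferase, read 7.4, 8.3 and 25 in control eggs and 62.5, 105.2 and 35 in the double knockdown, at least 1.92-fold higher (adjusted p = 0.0088, limma). Its highest control value was again in replicate 3. Nmt2, the paralog of Nmt1 and also named outside the rule, read 73.6 ± 11.3 and 66.9 ± 6.6 and was not called (-0.13 ± 0.19).

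For cyclophilins 0 of 8 were called against control and 4 had an unadjusted p under 0.05 (limma), the nearest being Ppib (0.69 ± 0.21, adjusted p = 0.0618) and Ranbp2 (-1.11 ± 0.46, adjusted p = 0.15). For calcium stores only 6 of 20 genes were tested, 0 were called and 2 had an unadjusted p under 0.05 (limma). The calcium pump gene Atp2a2 had a change of 0.45 ± 0.18 (adjusted p = 0.147) and the plasma membrane channel gene Orai1 one of 1.02 ± 0.45 (adjusted p = 0.171, limma). Ryr1, Ryr2 and Ryr3, the channels triadin binds in muscle, did not pass the filter. With each of the 12 arrays left out in turn, Naa38 stayed called in 12 fits, Cops3 in 7, Metap2 in 4 and Sec24c in 3. The count against control was 17 without control replicate 1 and 1 without control replicate 2. It was 1 without Dcp1a knockdown replicate 1, 2 without replicate 2 or 3 of that group, 2 without Dcp2 knockdown replicate 1 and 7 without Dcp2 knockdown replicate 2. It was 1 without double knockdown replicate 1 or 2 and 7 without replicate 3.

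**Figure D4:**
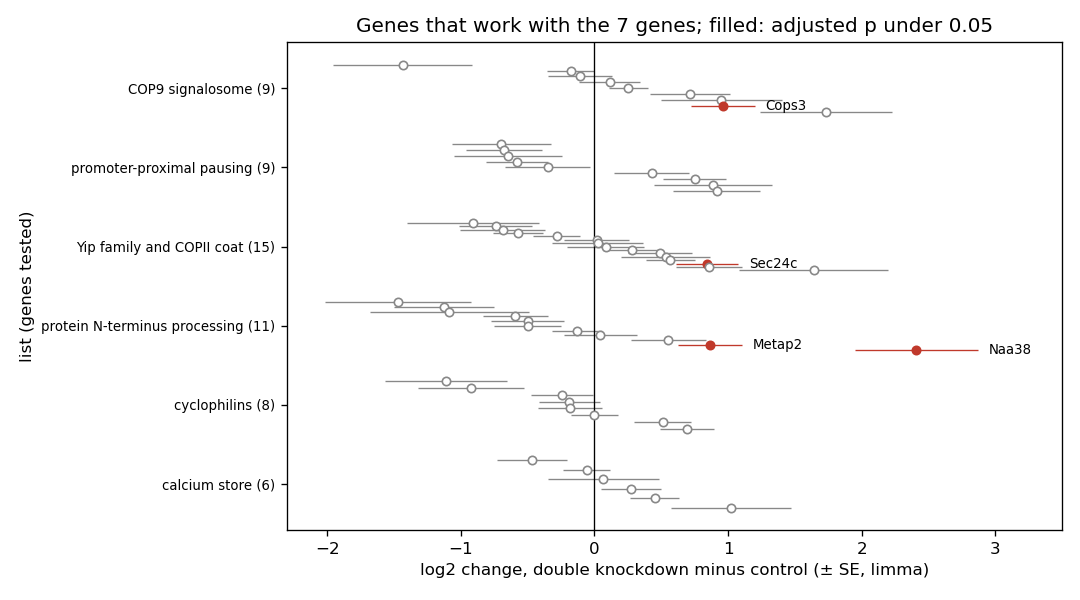
Log2 change of the double knockdown minus control (x axis, ± SE of the limma fit) for 58 tested genes in 6 lists (y axis, number tested in brackets); filled red points passed an adjusted p under 0.05. Cops3, Sec24c, Metap2 and Naa38 passed, and the other points lie on both sides of 0.

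Neighbours on the chromosome gave little to compare. The RefSeq gene table of GRCm38.p6 gives 14 genes next to the 7 by start position, of which 8 had a probe set of their own and 2 passed the filter. Neither was called in the double knockdown against control, and 1 had an unadjusted p under 0.05 (limma), as had 27.8% of all probe sets. Mcm7, a helicase subunit gene beside Cops6, had a log2 change of 0.44 ± 0.20 (adjusted p = 0.178), and Clk1, a splicing kinase gene beside Ppil3, one of -0.72 ± 0.42 (adjusted p = 0.266, limma). Without control replicate 1 it passed for Mcm7 (0.65 ± 0.17, SE). Taking protein-coding neighbours alone added Dcakd beside Nmt1 (1.40 ± 0.63, adjusted p = 0.178) and Clvs2 beside Trdn (-0.71 ± 0.27, adjusted p = 0.124, limma). Skiv2l, the helicase gene of the exosome-associated Ski complex beside Nelfe, did not exceed 5.3 units on any array.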

How the data were processed

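RNA of 30 eggs per sample was amplified, labelled with biotin and hybridised, per the labels' protocols. The authors' deposited intensity values, 1 per probe set and array on a linear scale, were made with GCRMA, per the submitters' processing notes. The sources used here do not give its version. The method corrects background, normalizes between arrays and pulls weak signals to a floor. With 55.6% of values no higher than 5 units, a dim probe set has a fold set largely by the floor. Precision is limited by the number of arrays.

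The log2 of each deposited value was used. After 64 control probe sets were removed from 45101, the filter passed 11593. Symbols came from the platform annotation, and a probe set shared by Znrd2 and its neighbour was not used. Groups were compared over all 12 arrays with limma 3.58.1 in R 4.3.3 (lmFit, eBayes without trend), two-sided, with Benjamini-Hochberg adjustment over all probe sets tested and a threshold of 0.05. Each SE of the fit thus pools the spread of all groups, those outside the comparison included. The fit was tested on simulated data for double knockdown against control over 11593 probe sets: of 50 raised by a log2 change of 2, 38 were called, of 50 raised by 1, 10 were called, and of 11393 with no change 4 were. Where the dimmer group averaged at or under 32 units, or had its median there, folds are bounds. The genes, lists and rules were chosen with earlier results of these data known. Named genes were the 7 genes, the targets, both chromosomal neighbours, the nearest profiles, and from each list up to 4 called genes, or the 2 lowest by p if under 2 were called. Alternatives changed the filter, floor, centring, normalization, variance model, arrays in the fit, replicate block, probe set per gene, and left out each array.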

Additional observations from a re-analysis of the deposited data

Results flagged for a closer look

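The effect of Dcp2 siRNA differed between eggs with and without Dcp1a siRNA for 2 of the 58 genes in the lists (3.9% of all probe sets departed upward, limma). Naa38 departed from the sum of the single changes by a log2 value of 3.37 ± 0.65 (SE) with an adjusted p of 0.0153 in limma, reading 7.2 to 9.1 in all single knockdown arrays, up to 25 in control eggs and 35 to 105.2 in the double knockdown. Ppwd1, a cyclophilin of the spliceosome, departed by 1.34 ± 0.30 (adjusted p = 0.0293, limma). It read 38.4 to 51.3 in control eggs, 22.2 to 30.3 in the Dcp1a knockdown, 39.5 to 56.1 after Dcp2 siRNA and 58 to 78.6 after both siRNAs. For both genes at least 1 group lay under 32 units, so the sizes depend on the floor. With values under 32 set to 32 neither passed the threshold, the departure then being 0.94 ± 0.43 for Naa38 and 1.02 ± 0.27 for Ppwd1 (log2, SE, limma).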

How the results depend on the processing

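The 7 genes were chosen for a high double knockdown, and most settings could not undo the lack of overlap. Leaving out an array, or changing the filter, the variance model or the block, leaves the values as they are. Setting values under 32 to 32 cannot undo it either, as every double knockdown array was above 32. Median centring, quantile normalization and cyclic loess do change the values, and under each the lowest double knockdown array stayed above all others for all 7 genes. With log2 gaps of 2.24 or more in the other genes, this was open mainly for Nmt1 (0.48) and Trdn (0.39). As the genes were chosen on this contrast, the outcome is no support for it. With log2 above 6 required only 5 of the 7 could be examined. Of the log2 differences of the 7 genes under the alternatives, 417 moved by less than the spread among replicates, 18 by more, and none changed sign. Many of the 417 could not move. A difference of group means is unchanged by the filter, the variance model, the block and arrays outside the comparison. The spread was the larger SD of control and double knockdown, also for comparisons with a single knockdown, so these counts are a weak check. Most of the 18 came with values under 32 set to 32. With that floor the difference from control was 0.88 for Cops6, 1.23 for Znrd2, 2.18 for Yif1a and 2.75 for Trdn. List genes called against control, 4 as reported, were 0 without a filter and 0 with only the arrays compared, 2 with log2 above 6 required, 2 with the replicate block and 1 to 17 with an array left out. Against the Dcp1a knockdown, 8 as reported, they were 4 without a filter, 13 after quantile normalization, 17 with only the arrays compared, 5 with the replicate block and 3 to 17 with an array left out. Against the Dcp2 knockdown, 3 as reported, they were 1 without a filter, 2 with the block and 2 to 4 with an array left out. Interaction calls, 2 as reported, were 0 without a filter or with log2 above 6 required, 1 with the floor, median centring, quantile normalization, cyclic loess or the replicate block, and 1 to 3 with an array left out. The call with the floor was Cops4, which was not called without it. Probe sets called in all, 1011, were 527 without a filter, 277 with only the arrays compared, 819 with the block and 444 to 2451 with an array left out, and their upward share was 76%, or 65.8% under median centring and 64.5% under quantile normalization. Between the single knockdowns 0 to 1 of the 7 genes was called with an array left out, and 0 to 1 neighbour against control. Of the calls named, Naa38 held in 17 of 20 alternatives, Cops3 in 13 of 21, Metap2 in 7 and Sec24c in 6, with adjusted p up to 0.0994, 0.138, 0.174 and 0.179 (limma). Whether the replicate numbers pair the samples cannot be told from these values. Deviations from group means of same-numbered arrays correlated between -0.685 and 0.394, with 9 of 18 pairs over 0.1. Those of arrays with different numbers correlated between -0.506 and 0.722, with 14 of 36 pairs over 0.1. Of the 12 arrays, 5 correlated best with their own number. The cause of these changes was not tested. Dim signal limits 6 of the 7 genes, for which control levels are not measured.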
